A study of Mus musculus with 7 samples.

Results

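The SMC proteins are the ring-forming ATPases of chromosome structure, and their genes were followed in lymphoma lines with and without Smchd1. The 8 genes are Smchd1 itself, Lrif1, which is no SMC gene but encodes a protein that binds SMCHD1, and the canonical SMC genes Smc1a, Smc2, Smc3, Smc4, Smc5 and Smc6. The genes were chosen by symbol through their Entrez identifiers, and all 8 were found among the 27179 genes of each count table. All 8 also passed the filter on low counts, which retained 12303 genes that reached 0.5 CPM (counts scaled to the library's total) in at least 3 lines. RNA-seq had been run on 3 wild-type and 4 Smchd1 null cell lines. All were derived from lymphomas taken at end stage from C57BL/6 males.

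Every line carried the Eµ-Myc transgene, in which an immunoglobulin enhancer drives Myc in B cells, so the control lines are tumours too and no normal B cells were compared here. The null lines are labelled as homozygous for a gene trap in Smchd1, while the methods of the study write the allele as MD1. The labels do not say whether each line came from a separate mouse, so p-values measure the spread between lines only. In bulk RNA, fewer cells of a type and less RNA per cell cannot be told apart.

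SMC proteins have long coiled-coil arms, an ATPase head and a hinge through which they pair. SMC1A and SMC3 form the core of cohesin, which holds sister chromatids together and extrudes loops. SMC2 and SMC4 form the core of condensin, which compacts mitotic chromosomes, and SMC5 and SMC6 form a complex that acts in DNA repair and in the silencing of some viral DNA. SMCHD1 shares the hinge but has a different, GHKL-type ATPase, and is known for silencing on the inactive X chromosome and at imprinted and clustered genes. LRIF1 links SMCHD1 to HP1 proteins on silent chromatin.

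Some libraries stood apart from the rest of their group. Total counts ranged from 3626853 to 7519549, and 3 counts, taken as the smallest level that can be shown, corresponded to between 0.399 and 0.827 CPM. Wild-type replicate 1 was the shallowest library and the only one of batch 1, with single-end reads. Wild-type replicates 2 and 3 lay close together, at a leading log2 fold change distance (over the 500 genes that differ most) of 1.26, whereas the distance of wild-type replicate 1 to this pair averaged 4.15. Smchd1 null replicate 4 was the furthest from its group, at a mean distance of 4.77. The fit with sample weights gave 0.246 to wild-type replicate 1 and 0.249 to null replicate 4. Wild-type replicates 2 and 3 had weights of 3.785 and 3.059, and null replicates 1 to 3 had 0.83 to 1.60. Fitted log2 fold changes therefore rest mostly on the lines with high weights and can differ from ratios of group means. The fit counts wild-type replicates 2 and 3 as separate lines, and whether they came from separate mice is not given. With their counts summed, only 1 of the 12303 genes tested had an FDR under 0.05. The B cell genes Cd79a, Cd79b and Pax5 were detected in every line, Cd79a with 755 to 2875 counts and Pax5 with 125 to 550 counts. Several B cell genes were lowest in null replicate 4. Cd79a was at 100 CPM there against 181 to 444 CPM elsewhere, and Pax5 at 16.6 against 51.3 to 84.95. Cd22 was at 25.4 CPM against 180 to 341 and Blnk at 40.7 against 146 to 300. Cd79b in that line was within the range of the others. In the fit with sample weights, Cd79a was DE and higher in null lines (log2 fold change 0.96, limma FDR 0.0445), DE standing for differentially expressed at an FDR under 0.05. Ebf1, a B lineage transcription factor, was DE and lower (-0.67, limma FDR 0.0494). Of all genes tested, 11.9% were DE. The CPM ranges of the groups overlapped for both genes. Neither was DE without sample weights (voom alone, limma FDR 0.751 and 0.444) or in DESeq2 (FDR 0.538 and 0.372). Both were DE without null replicate 4 (limma FDR 0.00626 and 0.0483). The 6 T and NK cell markers summed to at most 0.532 CPM, and Cd3e, Cd8a, Nkg7 and Ncr1 were at 0 in every line. Myeloid markers summed to between 0.296 and 27.1 CPM. Endothelial and stromal markers summed to between 57.1 and 70.3 CPM in wild-type and 63.1 and 221 CPM in null lines. The highest sum was in null replicate 4. Most of it in each line was Pecam1, at 44.1 to 68.3 CPM in wild-type and 61.8 to 219 CPM in null lines. Kdr was at 0 in every line, and Cdh5 was at most at 3.58 CPM. Col1a1 and Col1a2 had 20 and 14 counts in wild-type replicate 1 and at most 2 counts elsewhere. The part of these levels in the results was not tested. Xist, on chromosome X, had 0 to 4 counts in each line. Although all lines are labelled male, the Y-linked genes differed between them. Ddx3y had 4 counts in wild-type replicate 1 and 0 counts in null replicate 3, against 671 to 922 counts in the other lines. Eif2s3y had 0 counts in wild-type replicates 2 and 3 and null replicate 3, 4 counts in wild-type replicate 1 and 406 to 511 counts in the other lines. Uty had 1 count in wild-type replicate 1 and null replicate 3, 9 counts in null replicate 4 and 126 to 178 counts elsewhere. Wild-type replicates 2 and 3 thus shared a pattern seen in no other line, with Ddx3y and Uty counts but 0 of Eif2s3y. Whether these lines share a source was not tested.

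The promoter of Smchd1 is shown because it is the targeted gene, and that of Smc3 because the gene fell in the comparison. The listed start site is the annotated gene start for Smc3 and lies 23 bases inside the gene for Smchd1. Both are the 250 bases before the start site in RefSeq on GRCm38.p6, the same build as mm10, at chr17:71475344-71475593 on the minus strand and chr19:53600146-53600395 on the plus strand. Capitals mark the GC box GGGCGG or its reverse complement CCGCCC.

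Smchd1: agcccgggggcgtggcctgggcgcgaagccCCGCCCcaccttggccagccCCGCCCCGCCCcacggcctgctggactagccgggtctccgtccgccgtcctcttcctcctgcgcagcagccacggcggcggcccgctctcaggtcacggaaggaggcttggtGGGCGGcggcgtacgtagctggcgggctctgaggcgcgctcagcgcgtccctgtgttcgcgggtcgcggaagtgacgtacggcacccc

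Smc3: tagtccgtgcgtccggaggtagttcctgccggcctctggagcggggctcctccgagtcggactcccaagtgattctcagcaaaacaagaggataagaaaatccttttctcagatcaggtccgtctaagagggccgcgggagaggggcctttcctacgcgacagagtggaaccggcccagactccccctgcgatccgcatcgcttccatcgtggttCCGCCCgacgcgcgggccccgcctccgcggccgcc

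The Smchd1 window held 33 CG dinucleotides and 4 GC boxes, of which a pair overlap by 1 base, and the Smc3 window held 26 and 1. The median over 27025 promoters was 6 CG dinucleotides, and 32.9% of those promoters held a GC box on either strand. The other motifs searched on both strands were CCAAT, held by 34.5% of promoters, the E2F-type GGCGGGAA, held by 1.9%, and the CHR element TTTGAA, held by 16.3%. None of these 3 motifs was in either window printed here. Promoter entries were matched for 7 of the 8 genes, all but Smc4, and the entry of Smc5 lies 1323 bases inside the gene and is not shown.

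Smchd1 (Entrez 74355, chromosome 17, 71344489 to 71475366) had the largest difference of the 8 genes. Its level was 248, 230 and 219 CPM in wild-type replicates 1 to 3 and 25.9, 22.6, 28.6 and 28.7 CPM in Smchd1 null replicates 1 to 4. Every null line was therefore well below every wild-type line, and both groups were narrow. The null mean was 11.4% of the wild-type mean, and the mean fell by 206 CPM (exact two-sided permutation test, p = 0.0286, which is the lowest p possible for groups of 3 and 4). The log2 fold change in voom with sample weights was -3.16 (95% CI -3.42 to -2.90, FDR 2.18e-05 in limma). The null counts ran from 141 to 216, which is far above the limit of 3 counts, so transcript of this gene was detected in every null line. Counts are summed over the gene, and whether the remaining reads come from particular exons was not tested.

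On the RPKM scale, in which CPM is divided by the gene's length in kilobases and which allows levels of different genes to be compared, Smchd1 went from percentile 76.0 of the genes tested in wild-type lines to percentile 27.2 in null lines. It was at 33.0 ± 2.10 RPKM (SD, n = 3) in wild-type and 3.75 ± 0.405 RPKM (SD, n = 4) in null lines. In the null lines it was the lowest of the 8 genes, with its highest value of 4.07 RPKM below the lowest value of Lrif1, 4.52 RPKM.

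**Figure D1:**
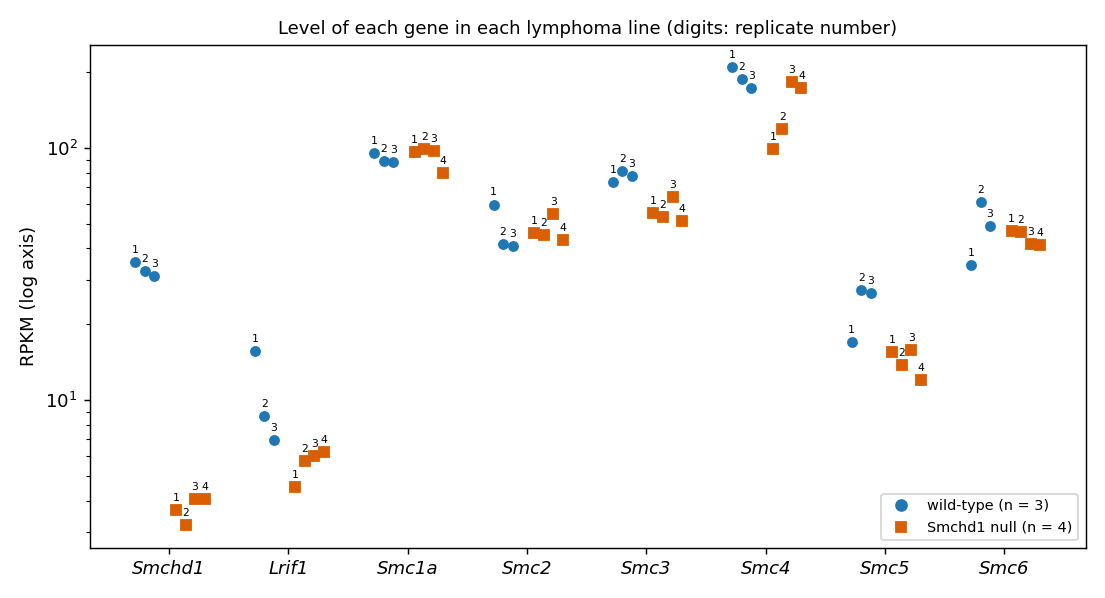
Level of each of the 8 genes in RPKM (log axis) in the 3 wild-type lines (circles) and the 4 Smchd1 null lines (squares), each point being 1 line marked with its replicate number. Smchd1 falls from between 31.0 and 35.2 RPKM to between 3.21 and 4.07, and Smc4 is the highest gene in each line.

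The order of the genes by level was otherwise similar in the groups. In wild-type lines Smc4 led at 190 ± 18.2 RPKM (SD, n = 3), followed by Smc1a at 90.9 ± 3.92 and Smc3 at 77.1 ± 3.86. The ranges of these 3 genes did not overlap with each other. Below them came Smc6 at 48.2 ± 13.4 and Smc2 at 47.5 ± 10.6, which cannot be ordered beyond their spread, and the ranges of Smc6 and Smchd1 met as well. Smc5 was at 23.6 ± 5.75 RPKM and Lrif1 was the lowest at 10.4 ± 4.66. In null lines Smc4 was at 143 ± 40.4 RPKM (SD, n = 4), Smc1a at 93.2 ± 8.96 and Smc3 at 55.9 ± 5.57. Smc2 at 47.3 ± 5.12 and Smc6 at 44.2 ± 3.06 again overlapped. Smc5 was at 14.3 ± 1.77 and Lrif1 at 5.62 ± 0.767 RPKM.

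Of the 8 genes, 3 were called DE in voom with sample weights, and all 3 were lower in the null lines. They were Smchd1, Smc3 and Smc5. Smchd1 is the targeted gene, so its place in these counts says nothing about the other genes. Smc3 and Smc5 both lie on chromosome 19, of whose tested genes 38.1% were DE and lower. Of all genes tested, 11.9% were DE, 6.85% in the lower and 5.06% in the higher direction. The null and wild-type ranges of CPM did not overlap for 4 of the 8 genes, the same 3 and Lrif1, all lower in null lines. Over all genes tested this held for 6.85% in the lower and 6.35% in the higher direction. The median log2 fold change was -0.51 over the 8 genes, Smchd1 included, and -0.0058 over all genes tested. Only Smchd1 was DE with voom alone, which gives no weight to samples and called 0.0975% of all genes, and the quasi-likelihood test of edgeR called the same share. DESeq2 called Smchd1 and Smc3, and 3.29% of the genes to which it gave an adjusted p. Without wild-type replicate 2, and likewise without wild-type replicate 3, Smchd1 was the only gene DE among all 12303. Without wild-type replicate 1, the controls left are the close replicates 2 and 3, and 1683 genes were DE. By the study's account, samples in a group of 2 receive equal sample weights. FDRs with different wild-type lines left out are therefore not like for like. Without null replicate 2 it was the only one DE of the 8, and 281 of all genes were DE.

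The cohesin partners differed from each other. Smc1a (Entrez 24061, chromosome X, 152016428 to 152061973) was at 379, 354 and 350 CPM in wild-type replicates 1 to 3 and at 383, 393, 387 and 317 CPM in null replicates 1 to 4. The groups overlapped, null replicate 4 being the lowest line of all. Its log2 fold change was 0.12 (95% CI -0.069 to 0.30, FDR 0.360 in limma). The value was 0.12 without wild-type replicate 1 (limma FDR 0.364) and 0.14 without null replicate 4 (limma FDR 0.269). Any fall larger than 0.069 or rise larger than 0.30 on the log2 scale lies outside that interval.

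Smc3 (Entrez 13006, chromosome 19, 53600396 to 53645831) was at 355, 392 and 376 CPM in wild-type lines and at 268, 259, 310 and 249 CPM in null lines. All 4 null lines lay below all 3 wild-type lines. The log2 fold change was -0.50 (95% CI -0.71 to -0.29, FDR 0.0172 in limma). The mean CPM of the null lines was 72.5% of that of the wild-type lines. Without wild-type replicate 1 the value was -0.51 (limma FDR 0.0180), with batch 2 alone and the close wild-type replicates 2 and 3 left. Without null replicate 4 it was -0.50 (limma FDR 0.0244). The call was lost without wild-type replicate 2 (-0.40, limma FDR 0.846) or 3 (-0.43, limma FDR 0.781) and without null replicate 1 (-0.44, limma FDR 0.0827) or 2 (-0.41, limma FDR 0.0999).

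The ratio of Smc1a to Smc3 is taken within a library and needs no scaling between libraries. It still holds any difference in level between the chromosomes of its genes, which is set out further below. In counts per kilobase it was 1.304, 1.103 and 1.138 in wild-type replicates 1 to 3 and 1.75, 1.86, 1.52 and 1.56 in null replicates 1 to 4. The groups did not overlap, and the mean log2 ratio rose from 0.24 ± 0.13 (SD, n = 3) to 0.74 ± 0.14 (SD, n = 4; exact two-sided permutation test, p = 0.0286, the smallest possible, 1 of 3 such ratios tested). The other subunits of the mitotic cohesin ring were RAD21, the kleisin that closes it, and the STAG proteins. Of Rad21, Stag1 and Stag2, 0 of 3 were DE (11.9% of all genes tested), with log2 fold changes from -0.080 to 0.13.

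**Figure D2:**
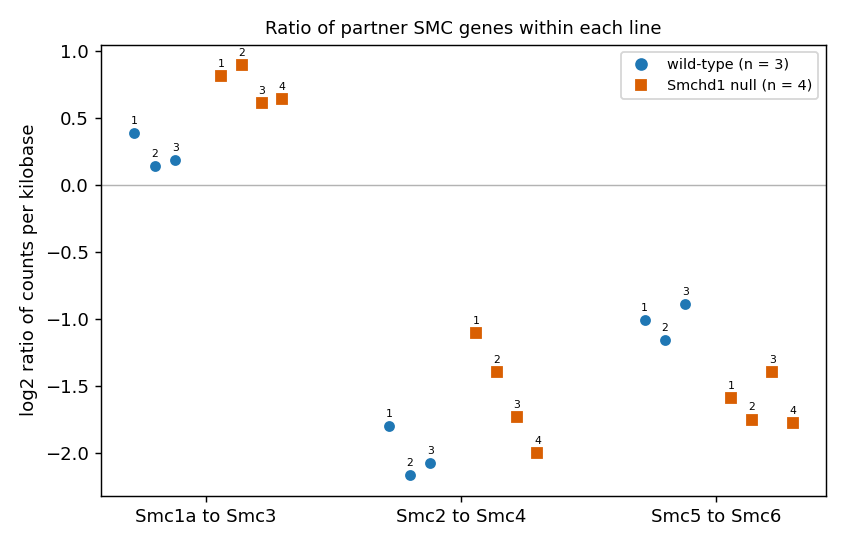
Log2 ratio of counts per kilobase for the partner genes of cohesin (Smc1a to Smc3), condensin (Smc2 to Smc4) and the SMC5/6 complex (Smc5 to Smc6), each point being 1 line. The groups are apart for the first and the last ratio, whose differences of the means are 0.50 and -0.61, and overlap for Smc2 to Smc4.

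Of the condensin genes, Smc2 (Entrez 14211, chromosome 4, 52439221 to 52488365) was at 318, 223 and 218 CPM in wild-type and 246, 240, 292 and 230 CPM in null lines. The highest line was wild-type replicate 1, and the null lines lay between it and the other 2. Smc2 had a log2 fold change of 0.17 (95% CI -0.066 to 0.41, FDR 0.290 in limma). It was 0.19 without wild-type replicate 1 and 0.17 without null replicate 4, but -0.036 and -0.050 without wild-type replicates 2 and 3.

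Smc4 (Entrez 70099, chromosome 3, 69004738 to 69034623) was at 852, 767 and 703 CPM in wild-type lines and at 406, 486, 744 and 706 CPM in null lines. The null group was thus split, with replicates 1 and 2 low and replicates 3 and 4 within the wild-type range. For Smc4 the log2 fold change was -0.51 (95% CI -0.89 to -0.14, FDR 0.0754 in limma). The value depended on which null line was left out. It was -0.23 without replicate 1 (limma FDR 0.408), -0.28 without replicate 2 (limma FDR 0.413), -0.68 and DE without replicate 3 (limma FDR 0.0282) and -0.56 without replicate 4 (limma FDR 0.0641). Without wild-type replicate 1 it was -0.51 (limma FDR 0.0910).

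The log2 ratio of Smc2 to Smc4 was -2.02 ± 0.19 (SD, n = 3) in wild-type and -1.56 ± 0.39 (SD, n = 4) in null lines, and the groups overlapped (exact two-sided permutation test, p = 0.114). The other subunits are Ncaph, Ncapd2 and Ncapg in condensin I, which acts after the nuclear envelope breaks down, and Ncaph2, Ncapd3 and Ncapg2 in condensin II, which is nuclear throughout the cell cycle. Of these, 0 of 6 were DE (11.9% of all genes tested), with log2 fold changes from -0.35 (Ncapg2) to 0.24 (Ncaph2). Of 12 mitotic genes, which mark dividing cells, 2 were DE and lower, against 6.85% of all genes tested, and 10 were not DE. The 2 were Kif11, a spindle motor on chromosome 19, and Cenpf, a kinetochore protein on chromosome 1. Of the tested genes of these chromosomes 38.1% and 17.9% were DE and lower. The CPM ranges of the groups overlapped for Cenpf. The summed level of the 12 genes was between 4224 and 4452 CPM in wild-type and between 3648 and 4439 CPM in null lines. Its part in these results was not tested.

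Smc5 (Entrez 226026, chromosome 19, 23206441 to 23273922) was also lower in the null lines. It was at 99.8, 160 and 156 CPM in wild-type replicates 1 to 3 and at 91.5, 81.3, 93.1 and 70.7 CPM in null replicates 1 to 4. Every null line was below every wild-type line, but wild-type replicate 1 was much nearer to the null lines than to the other wild-type lines. For Smc5 the log2 fold change was -0.86 (95% CI -1.15 to -0.58, FDR 0.0109 in limma), and the null mean was 60.7% of the wild-type mean. Without wild-type replicate 1 the value was -0.88 (limma FDR 0.00608), and without null replicate 4 it was -0.85 (limma FDR 0.0174). The call was lost without wild-type replicate 2 (-0.52, limma FDR 0.863), without wild-type replicate 3 (-0.54, limma FDR 0.794) and without null replicate 2 (-0.80, limma FDR 0.0507).

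Smc6 (Entrez 67241, chromosome 12, 11265886 to 11319785) was at 192, 342 and 276 CPM in wild-type and 264, 261, 234 and 232 CPM in null lines. The wild-type lines spread widely around the null lines. For Smc6 the log2 fold change was -0.27 (95% CI -0.61 to 0.063, FDR 0.238 in limma). It was -0.28 without wild-type replicate 1 and -0.25 without null replicate 4, but 0.16 and 0.0067 without wild-type replicates 2 and 3. Smc6 shares 144 bases with Gen1, and Smc1a shares 459 bases with Ribc1. Reads there cannot be assigned by strand with an unstranded kit. Gen1 had 150 to 257 counts and Ribc1 14 to 42 counts in each line.

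In counts per kilobase the ratio of Smc5 to Smc6 was 0.496, 0.447 and 0.540 in wild-type lines and 0.332, 0.297, 0.380 and 0.292 in null lines. Here wild-type replicate 1 lay between the other 2 wild-type lines, and the groups were apart. The mean log2 ratio fell by 0.61, from -1.02 ± 0.14 (SD, n = 3) to -1.63 ± 0.17 (SD, n = 4). The exact two-sided permutation test gave p = 0.0286, the smallest possible, for 1 of 3 such ratios tested. This ratio rests on the same counts as the log2 fold changes of Smc5 and Smc6.

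The list of other SMC5/6 genes held 7 members, of which 6 were tested, 1 was DE and higher, 1 DE and lower, and 4 were not DE. Over all genes tested 11.9% were DE. Nsmce3, a MAGE-family subunit that works with the ubiquitin ligase NSMCE1, was at 17.6, 23.8 and 25.8 CPM in wild-type and at 34.4, 49.8, 39.1 and 31.9 CPM in null lines. All null lines were above all wild-type lines, and the fitted log2 difference was 0.74 ± 0.15 (SE; limma FDR 0.0245). Slf2, which helps to bring SMC5/6 to chromatin, was at 124, 141 and 155 CPM in wild-type and at 98.5, 101, 113 and 101 CPM in null lines. The fitted log2 difference was -0.51 ± 0.097 (SE; limma FDR 0.020), and the gene lies on chromosome 19 like Smc3 and Smc5. Neither Nsmce3 nor Slf2 was DE with voom alone (limma FDR 0.317 and 0.325).

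**Figure D3:**
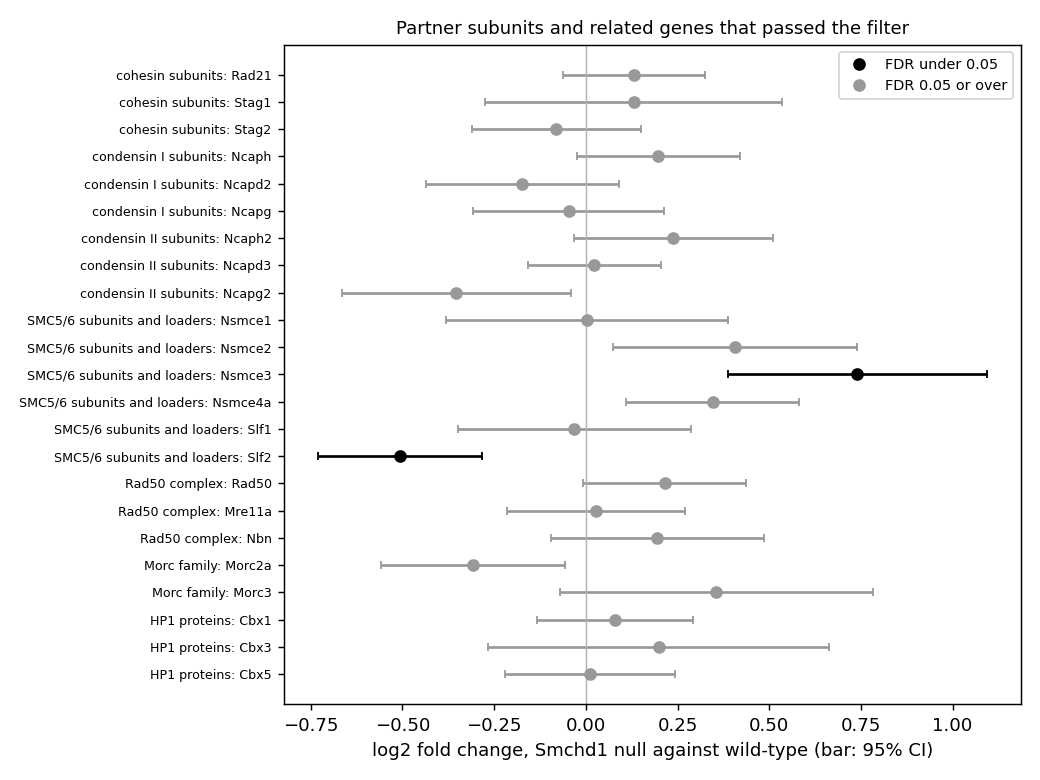
Log2 fold change, Smchd1 null against wild-type, of the partner subunits and related genes that passed the filter, with bars for the 95% confidence interval. Of those shown, Nsmce3 at 0.74 and Slf2 at -0.51 have an FDR under 0.05 (black), and the rest do not (grey).

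Lrif1 (Entrez 321000, chromosome 3, 106684942 to 106736577) was at 55.1, 30.3 and 24.3 CPM in wild-type replicates 1 to 3 and at 15.8, 20.1, 21.0 and 21.9 CPM in null replicates 1 to 4. The groups did not overlap, though wild-type replicate 3 and null replicate 4 were only a little apart. The null mean, with every line counted equally, was 53.9% of the wild-type mean. For Lrif1 the log2 fold change was -0.55 (95% CI -0.98 to -0.12), and the FDR of 0.0890 in limma did not pass the threshold. It did not pass in any of the 18 alternatives either (limma, edgeR or DESeq2 FDR from 0.0576 to 0.827). Without wild-type replicate 1, the highest line, the value was -0.51 (limma FDR 0.0913), and without null replicate 4 it was -0.56 (limma FDR 0.104). It was -0.83 without wild-type replicate 2 (limma FDR 0.827) and -1.03 without wild-type replicate 3 (limma FDR 0.634).

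None of the HP1, Morc or Rad50 complex genes tested was DE. Over all genes tested 11.9% were DE, so lists this short cannot show a lower share. The CPM ranges of the groups did not overlap for Rad50 and Cbx3, higher in null lines, and for Morc2a, lower in null lines. Over all genes tested this held for 6.35% in the higher and 6.85% in the lower direction. HP1 proteins, the readers of methylated H3K9 that LRIF1 binds, are encoded by Cbx1, Cbx3 and Cbx5, of which 0 of 3 were DE (log2 fold changes 0.011 to 0.20). The Morc genes encode other chromatin ATPases of the GHKL type. Of 5, only Morc2a and Morc3 were tested and 0 were DE, with log2 fold changes of -0.31 and 0.36, and Morc3 was at 240 CPM in wild-type replicate 1 against 75.0 to 123 CPM elsewhere. RAD50, an SMC-like repair protein, acts with MRE11 and NBN, and of Rad50, Mre11a and Nbn 0 of 3 were DE. Of the meiotic cohesin genes Smc1b, Rec8, Stag3 and Rad21l, 0 of 4 passed the filter. Smc1b, the meiotic counterpart of Smc1a, had 119 counts (32.8 CPM) in wild-type replicate 1 and at most 2 counts in the other 6 lines.

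The chromosome on which a gene lies moved with several of these results. This was examined after the values were known, over the genes tested with a mean of at least 10 CPM. The median log2 fold change was -0.53 over 335 such genes of chromosome 19, -0.40 over 410 of chromosome 3 and -0.27 over 330 of chromosome 12. It was 0.088 on chromosome 4, 0.046 on chromosome X and 0.045 on chromosome 17. Of all tested genes on chromosome 19, 38.1% were DE and lower.

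Each gene on these chromosomes can be set beside its chromosome. Smc3 at -0.50 was 0.024 above the median of chromosome 19, and 53.1% of the chromosome's genes had a lower log2 fold change. Smc6 at -0.27 lay at the median of chromosome 12, with 50.3% of its genes lower. Smc4 and Lrif1 differed by -0.12 and -0.15 from the median of chromosome 3, with 37.6% and 33.2% of its genes lower still. Smc5 differed by -0.34 from the median of chromosome 19, and 18.2% of the genes there had a lower log2 fold change. Smchd1 differed by -3.21 from the median of chromosome 17, where 4 of 450 genes were lower still.

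**Figure D4:**
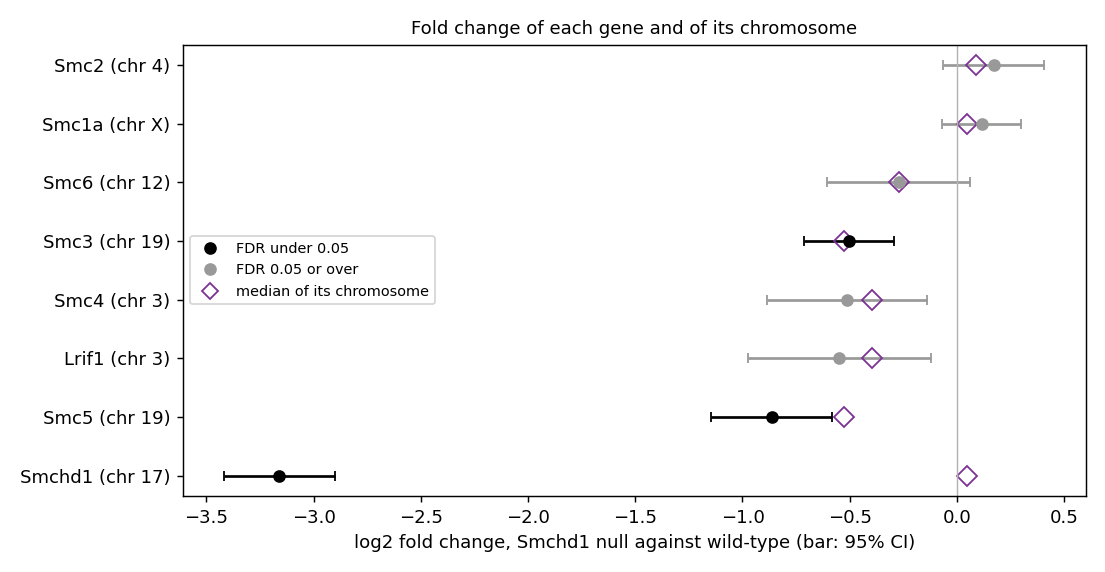
Log2 fold change, Smchd1 null against wild-type, of each gene with its 95% confidence interval (circle and bar, black where the FDR is under 0.05), beside the median log2 fold change of the genes of its chromosome (open diamond). Smc3 and Smc6 lie on the diamonds of chromosomes 19 and 12, whereas Smchd1 differs by -3.21 from that of chromosome 17.

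Values by line can be set beside those of the chromosome. On chromosome 3 the median deviation of log2 CPM from the mean of the 7 lines was 0.25, 0.16 and 0.14 in wild-type replicates 1 to 3 and -0.38, -0.39, 0.15 and 0.070 in null replicates 1 to 4. Smc4 was at 0.35, 0.26 and 0.13 and at -0.64, -0.41, 0.22 and 0.093 on this scale. The null lines that were low for the chromosome were thus those low for Smc4. Lrif1 did not show this split, with null lines at -0.62, -0.31, -0.23 and -0.22 and wild-type replicates 2 and 3 at 0.30 and -0.021. With the chromosome median of each line subtracted, the groups overlapped for Lrif1 and for Smc4.

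On chromosome 19 the median deviation was -0.15, 0.33 and 0.49 in wild-type lines and -0.091, -0.12, -0.15 and -0.22 in null lines. Wild-type replicate 1 therefore resembled the null lines there, as it did for Smc5, which was at -0.090 on this scale against 0.65 and 0.61 in wild-type replicates 2 and 3. With the chromosome median of each line subtracted, Smc5 was between 0.065 and 0.32 in wild-type and between -0.35 and 0.025 in null lines, so the groups stayed apart. Smc3 was at 0.15, 0.35 and 0.29 in wild-type lines and at -0.18, -0.27, 0.018 and -0.35 in null lines, so that in wild-type replicate 1 it was above the mean while its chromosome was below. After the same subtraction the groups overlapped for Smc3. On chromosome 12 the median deviation was -0.10, 0.30 and 0.11 in wild-type lines and between -0.14 and -0.032 in null lines, and Smc6 was at -0.45, 0.45 and 0.13 in the wild-type lines. Smc1a to Smc3 and Smc5 to Smc6, the partner ratios for which the groups were apart, each hold 1 gene of chromosome 19. The median log2 fold change was -0.53 there, 0.046 on chromosome X of Smc1a and -0.27 on chromosome 12 of Smc6. The part of the chromosome-wide levels in these differences and ratios was not tested.

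**Figure D5:**
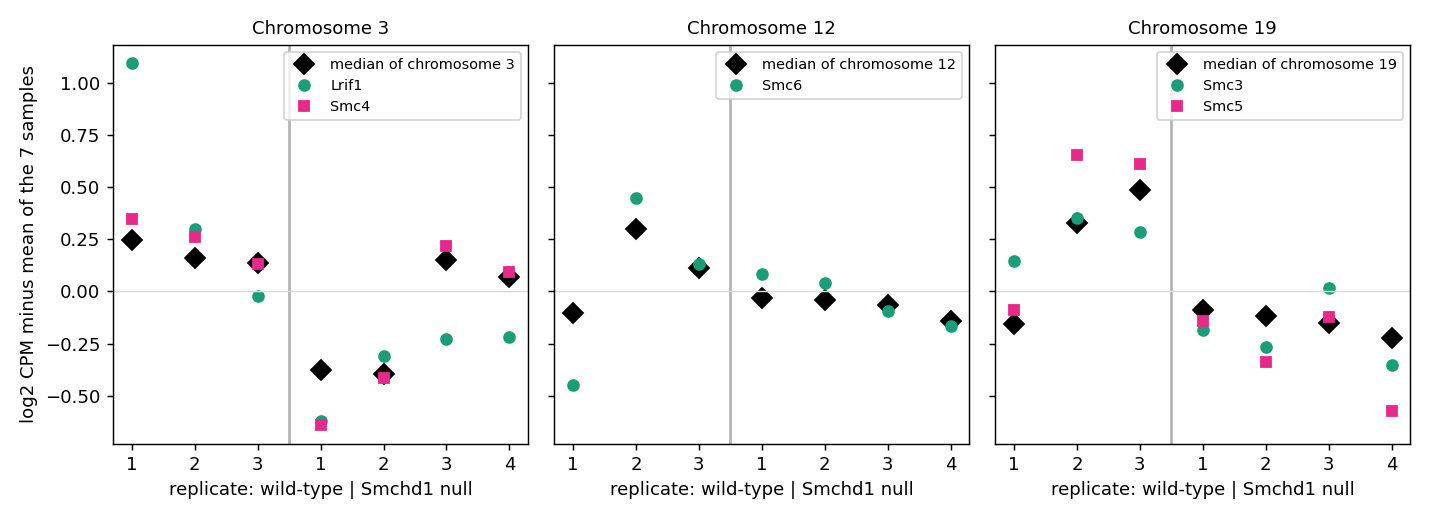
Deviation of log2 CPM from the mean of the 7 samples, for the median gene of chromosomes 3, 12 and 19 (diamonds) and for Lrif1, Smc4, Smc6, Smc3 and Smc5 (circles and squares), by line. On chromosome 3 null replicates 1 and 2 are low at -0.38 and -0.39, and on chromosome 19 wild-type replicates 2 and 3 are high at 0.33 and 0.49.

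Within 500 kb of Smchd1, 21 genes were listed, of which 11 were tested, with a median log2 fold change of 0.23. None of the 11 was DE and lower. Over all genes tested 6.85% were, so a list this short cannot show a lower share. The nearest tested gene, Ndc80, which encodes a kinetochore protein, was at -0.24 (limma FDR 0.126). Myl12a, a myosin light chain gene, was the only one DE, against 11.9% of all genes tested, and was higher (log2 fold change 0.43, limma FDR 0.0453). The CPM ranges of the groups overlapped for Myl12a. The lowest of the 11 was Myom1, a gene of muscle sarcomeres with 22 counts in all, at -1.96 (limma FDR 0.0965).

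The pattern most like that of Smchd1 over the 7 lines, by Pearson's r of log2 CPM as a description, was that of Igkv17-121, an immunoglobulin light chain segment (0.994), Cacng6 (0.991) and Spindoc (0.986). Igkv17-121 and Cacng6 had 0 counts in every null line and 5 to 19 counts in each wild-type line. Spindoc, which encodes a histone-reader-binding protein and lies on chromosome 19, was at 17.9, 15.6 and 15.8 CPM in wild-type lines and at 5.33, 4.18, 3.86 and 5.05 CPM in null lines. The most opposite patterns were those of Fzd10, Nfib and Peg12 (-0.996 to -0.997), all at 0 counts in each wild-type line and between 23.5 and 75.7 CPM in null lines. The 7 points share their libraries, and a gene that separates the groups scores high whatever else it does.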

How the data were processed

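Raw gene-level counts were deposited per library, keyed by Entrez identifier with a gene length. The authors made them from unstranded TruSeq libraries by aligning reads to mm10 with Subread and summarising with featureCounts, without normalisation or pooling. How multi-mapping reads were counted is not given in the sources used here. Symbols and positions came from RefSeq on GRCm38.p6 (25275 of 27179 identifiers matched). CPM and RPKM were computed from these counts, the total of each library and the deposited length.

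Genes that reached 0.5 CPM in at least 3 lines were fitted by limma 3.58.1 under R 4.3.3 using voomWithQualityWeights, TMM factors from edgeR (version 4.0.16) and no covariate, as in the study's methods. P-values were adjusted over all genes by the Benjamini-Hochberg method. Alternatives were the study's other strategies for these data (voom alone, block weights and sample removal), edgeR and DESeq2 (version 1.42.0). Other filters and normalisation, a batch term, a replicate block, wild-type replicates 2 and 3 summed, and omission of each sample were alternatives too. The pipeline was tested on simulated counts with large fold changes, the same variability in every line and no line set apart. That test does not cover small differences, unequal lines or chromosome-wide levels. Partner ratios and the CPM of Smchd1 had exact permutation tests. The rule for named genes took the 8 genes, the DE genes of each list of complex partners and related proteins (where there were none, the most and least expressed), tested genes within 500 kb of Smchd1 and the 3 genes most and least correlated with it. Genes and lists were chosen with earlier results of these data known, and chromosome medians and other named genes after values were seen. Intervals and floors cover counting error or the spread between lines only. A marker gene of the lists is not reported here.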

Additional observations from a re-analysis of the deposited data

Results flagged for a closer look

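In the Smchd1 null group, 11 values per line (the log2 CPM of the 8 genes and the 3 partner ratios) were screened for a line far from the other 3. About 1 in 20 such values is flagged by chance. The log2 CPM of Smc1a in null replicate 4 was 8.28, against 8.62 in the nearest of the other lines. This is also the line furthest from its group by leading log2 fold change. The wild-type group, with 3 lines, was not screened.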

How the results depend on the processing

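The log2 fold change of Smchd1 was DE in each of the 18 alternatives, at -3.23 to -3.02, and Smc1a and Lrif1 kept their direction in all 18 without being DE. Smc3 was DE in 8 of the 18 and Smc5 in 10, both lower in every one. Smc3 lost its call with voom alone (-0.46), block weights (-0.46), sample removal (-0.47), edgeR (-0.45), and wild-type replicates 2 and 3 summed (-0.42), and Smc5 with voom alone (-0.70), edgeR (-0.72), DESeq2 (-0.72) and the same sum (-0.55). Smc4 became DE with 10 counts in every sample (-0.55). The sum reversed Smc2 (-0.035) and Smc6 (0.072), neither of them DE. Leaving out each replicate gave -0.56 to -0.40 for Smc3, -0.89 to -0.52 for Smc5, -0.68 to -0.23 for Smc4, -0.050 to 0.26 for Smc2, -0.33 to 0.16 for Smc6 and -1.03 to -0.43 for Lrif1, with 1 to 4 of the 8 genes DE. Without wild-type replicate 2 or 3, or without null replicate 2, the count was 1, and without null replicate 3 it was 4. The count was 1 with voom alone, edgeR, the sum and the replicate block, against 3. Over all genes 1466 were DE, against 12 with voom alone and with edgeR, 493 with block weights, 521 after sample removal, 384 in DESeq2, 222 with the replicate block, 1 with the sum and 1 to 1683 without each replicate in turn. The cause of these differences was not tested.

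Replicate numbers 1 to 3 occur in both groups, but the deviations of same-numbered samples from their group means correlated at -0.15, 0.23 and -0.18 across genes, and 2 of 6 samples correlated best with their own number, so the numbers were not taken to pair the lines. With the replicate block the log2 fold changes of Smc3 and Smc5 were -0.50 and -0.84 (limma FDR 0.0915 and 0.0637). Permutation tests of 2 against 4 or 3 against 3 lines cannot reach 0.05, so that leaving lines out gives only values for the ratios, which kept their sign (without wild-type replicate 1 and without null replicate 4, 0.57 and 0.53 for Smc1a to Smc3, 0.56 and 0.60 for Smc2 to Smc4, and -0.60 and -0.56 for Smc5 to Smc6). Counts per line were lowest for Lrif1 (107 to 200) and for Smchd1 in null lines (141 to 216), where counting error is widest.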
